A study of Mus musculus with 2 samples.

Results

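The genes described here are 10 members of the aldehyde dehydrogenase family, measured in 2 mouse tumours. They were chosen by gene name among the non-control spots of both arrays, namely Aldh1a1, Aldh1a2, Aldh1a3, Aldh1b1, Aldh2, Aldh3a1, Aldh3a2, Aldh3b1, Aldh7a1 and Aldh18a1, and all 10 were found among the 27962 gene names on the array, with 13 of its 41174 probes. The set was assembled because Aldh3b1 differed between the tumours, so the differences below are descriptions of the values that chose the set, and no test is attached to them.

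Aldehyde dehydrogenases oxidise reactive aldehydes to carboxylic acids with NAD or NADP as the electron acceptor. The aldehydes arise from retinol, ethanol, membrane lipids and amino acids. Members of the first class make retinoic acid from retinaldehyde, a signal that governs differentiation in many tissues, skeletal muscle among them, and their activity is widely used to mark stem-like cells in tumours.

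Both tumours grew from RMS3, which the labels name a PRMS line and leave that abbreviation unexplained. A suspension of 1000000 cells in 200 µl of PBS was placed under the skin of male C57BL/6J mice, and tumours were removed after 2 weeks. The protocol calls the harvested tumours metastatic, whereas the other labels place them at the site of injection. No genotype of the line and no age of the mice is given, and there is no cultured, uninjected or treated control. RMS3 is a single line in an untreated host whose own vessels, stroma and immune cells are part of the RNA, and in such bulk tissue fewer cells of a type and less RNA per cell cannot be told apart.

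Each tumour was measured once, on its own array, so a difference has 1 tumour on each side, with no replicate check and no p-value. Levels are given as log2 of the processed signal less log2 of the 75th percentile of that array, and can be set side by side between tumours but not between probes. The share of non-control spots well above background was 62.3% for tumour 1 and 66.1% for tumour 2. Array 1 carried 1128 spots with an outlier mark from the scanner software and array 2 carried 69. Among unmarked spots well above background on both arrays, 23.1% of those 1 row or column from a mark or a spot with high local background were at least 2-fold higher in tumour 2, against 12.3% at 2 steps and 0.785% beyond 10 steps. Spots within 2 rows and columns of either were therefore left out (29.3% of the non-control spots). The share was still 3.85% at 3 to 4 steps and 1.15% at 5 to 10 steps, so the excess did not end at this border. Spots of 1 probe printed repeatedly then varied with an SD of 0.23 on array 1 and 0.13 on array 2 (log2), which gives 0.26 for a difference. This error, an SD, is called the spot error below. It comes from repeats within an array, so it does not hold the spread between tumours or between hybridisations. For dim probes the SD was 0.27 on array 1 and 0.24 on array 2, so 0.26 understates the error of their differences.

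Marker genes of skeletal muscle and of hepatocytes were looked up. Of 10 skeletal muscle markers 7 were well above background in both tumours away from marks, among them the muscle regulators Myod1 (-5.24 in tumour 1 and -5.59 in tumour 2) and Myog (-2.24 and -2.11). Myod1 was barely above the lowest level called (-5.78 for array 1, -6.19 for array 2). Over all gene names with a spot away from marks 61.3% were detected in both tumours, so nothing is read from the count of muscle markers. Of 4 hepatocyte genes with a probe, 0 were detected in both tumours.

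Promoter windows of 6 of the members were found in the RefSeq table (GRCm38.p6), each from 250 bases before to 50 bases after the annotated start. The 3 shown belong to the gene with the large difference, to its relative in the same class that lay on the other side of zero, and to the second member on chromosome 19 that was higher in tumour 2. They are written 5′ to 3′ on the minus strand of chr19:3929729-3930028, chr11:61267137-61267436 and chr19:40588414-40588713. Capitals mark matches on either strand to the antioxidant response element core TGACNNNGC, the xenobiotic response element core GCGTG, the AP-1 site TGANTCA, the GC box GGGCGG or the TATA box TATAAA.
Aldh3b1: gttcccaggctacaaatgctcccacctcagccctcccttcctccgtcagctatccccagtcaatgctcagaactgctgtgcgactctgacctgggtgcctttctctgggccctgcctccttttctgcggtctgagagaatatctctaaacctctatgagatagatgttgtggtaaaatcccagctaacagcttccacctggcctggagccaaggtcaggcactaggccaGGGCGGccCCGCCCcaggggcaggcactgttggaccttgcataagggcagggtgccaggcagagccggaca
Aldh3a2: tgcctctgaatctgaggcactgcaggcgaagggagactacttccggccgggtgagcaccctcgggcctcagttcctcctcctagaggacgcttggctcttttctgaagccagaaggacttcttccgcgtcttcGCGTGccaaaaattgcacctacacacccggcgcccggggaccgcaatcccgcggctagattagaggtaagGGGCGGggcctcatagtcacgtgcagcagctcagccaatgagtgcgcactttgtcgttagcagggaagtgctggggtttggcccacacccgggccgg
Aldh18a1: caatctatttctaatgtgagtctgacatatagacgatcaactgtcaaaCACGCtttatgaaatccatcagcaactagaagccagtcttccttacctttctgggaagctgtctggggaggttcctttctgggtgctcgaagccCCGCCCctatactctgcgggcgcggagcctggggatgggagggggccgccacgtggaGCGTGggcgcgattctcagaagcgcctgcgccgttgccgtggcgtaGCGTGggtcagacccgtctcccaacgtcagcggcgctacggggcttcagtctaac
The window of Aldh3b1 held 2 GC boxes and no other match. That of Aldh3a2 held 1 GC box and 1 xenobiotic element core, and that of Aldh18a1 held 1 GC box and 3 xenobiotic element cores. Among all 32817 windows of 300 bases, 35.6% held a GC box, 32.4% the xenobiotic core, 12.4% the antioxidant core, 13.6% a TATA box and 7.81% an AP-1 site. The Aldh3b1 window held 6 CG pairs, against 21 for Aldh3a2, 23 for Aldh18a1 and a median of 7 over all windows. These motifs can share letters where they overlap, and a match describes the letters only.

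Away from outlier marks, 9 of the 10 genes kept at least 1 spot, and 6 of these were well above background in both tumours. Over all gene names with such a spot 61.3% were. Of the 6 genes measured, 3 were higher in tumour 2 and 3 in tumour 1, with a median difference of 0.14 (log2, tumour 2 minus tumour 1) beside -0.01 over 13441 genes. At least 2-fold apart was 1 of the 6, Aldh3b1, whereas 6.44% of all genes were that far apart, 2.60% towards tumour 2 and 3.84% towards tumour 1. The rule used this contrast, so nothing is read from that count.

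**Figure D1:**
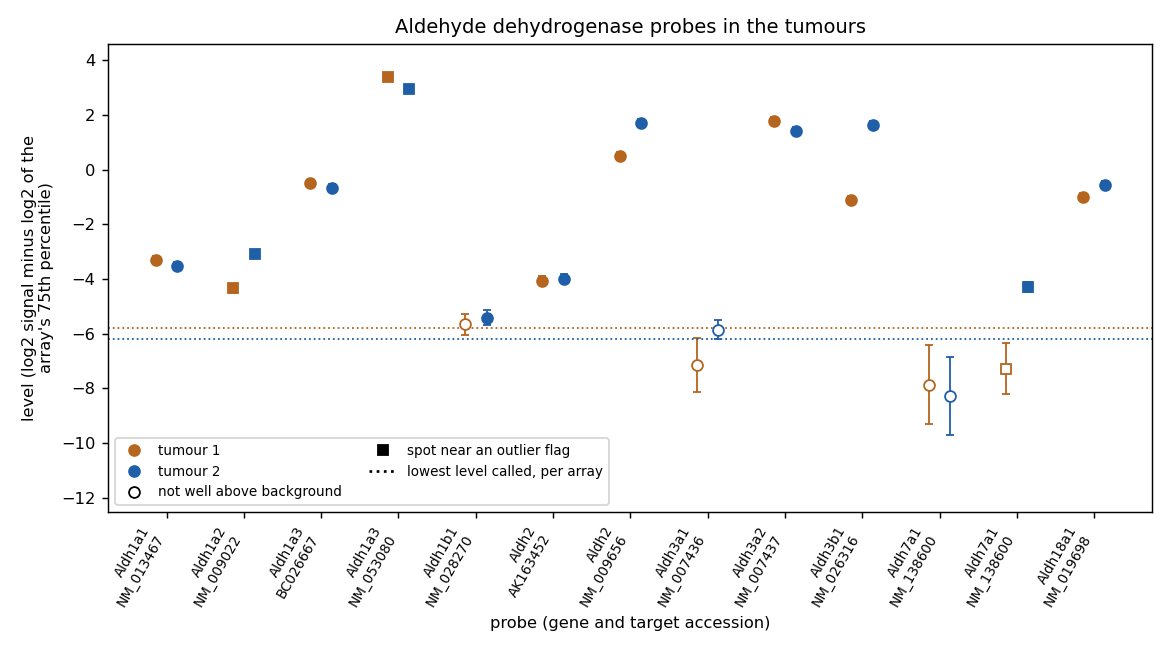
Levels of the 13 probes (log2 signal less log2 of the array's 75th percentile) in tumour 1 (brown) and tumour 2 (blue), with the scanner software's error of the spot as bars; hollow symbols are not well above background, squares lie near an outlier mark and dotted lines are the lowest level called on each array. Aldh3b1 lies at -1.11 in tumour 1 and 1.63 in tumour 2, and the NM_009656 probe of Aldh2 at 0.52 and 1.71.

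Of the retinaldehyde dehydrogenases, Aldh1a1 and Aldh1a3 lay towards tumour 1 by less than the spot error. Aldh1a2 had no value in the main setting. Aldh1a1, a cytosolic enzyme, gave a signal of 101 ± 11.0 in tumour 1 and 78.9 ± 8.54 in tumour 2 (the error is the scanner software's for the spot). These are levels of -3.30 and -3.52, a difference of -0.22, which is smaller than the spot error of 0.26.

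Aldh1a3, which also makes retinoic acid, was read by a pair of probes. The probe for BC026667 had signals of 703 ± 70.4 and 568 ± 56.9, and its levels of -0.50 and -0.67 differed by -0.17. The probe for NM_053080 lay 2 steps from an outlier mark and was left out. Its signals were 10400 ± 1040 (tumour 1) and 7073 ± 707 (tumour 2). After scaling, these are levels of 3.38 and 2.97, which differed by -0.42 before rounding. Both probes pointed to tumour 1, the first by less than the spot error. With all unmarked spots used, both probes enter and the difference of Aldh1a3 was -0.49, beside a shift of -0.18 in the median of all genes.

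Aldh1a2, the retinaldehyde dehydrogenase best known from early mesoderm, had its 1 spot directly beside a mark and so has no value in the main setting. In the setting with all unmarked spots it lay at -3.98 in tumour 1 and -2.91 in tumour 2, from signals of 49.2 ± 6.17 and 107 ± 11.0. The difference was 1.07 (2.1-fold), in a setting in which 11.3% of 16376 genes were at least 2-fold apart, 5.06% towards tumour 2 and 6.27% towards tumour 1. Among unmarked spots 1 step from a mark or high local background, 23.1% were at least 2-fold higher in tumour 2. In the scaling of the main setting the Aldh1a2 spot differed by 1.27. In that scaling, the 178 other unmarked spots within 10 rows and columns that were well above background on both arrays had a median difference of 0.03.

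Aldh1b1 and Aldh2 are mitochondrial enzymes, both of which oxidise acetaldehyde. Aldh1b1 was dim. Its signal was 19.9 ± 5.29 in tumour 1, not well above background, and 21.3 ± 4.14 in tumour 2, well above it. The levels of -5.65 and -5.41 differed by 0.24, less than the spot error of 0.26, so neither tumour is called higher.

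Aldh2, the main enzyme of acetaldehyde clearance, was the member whose probes disagreed. The probe for NM_009656 read 1430 ± 143 in tumour 1 and 2955 ± 295 in tumour 2. Its levels of 0.52 and 1.71 differed by 1.19 (2.28-fold), well beyond the spot error. The probe for the cDNA AK163452 read 59.6 ± 6.99 and 56.8 ± 6.22, levels of -4.06 and -3.99 that differed by 0.07. The accession of the dim probe had no match in the RefSeq table, while that of the bright probe matched Aldh2. Over both probes the difference was 0.63 (1.55-fold), at which 92.6% of all genes lay lower. The spots of both probes were 21 and 14 steps from the nearest mark and had even pixels, with a pixel SD of 14.7% and 16.4% of the spot mean on array 1.

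Aldh3a1, Aldh3a2 and Aldh3b1 form the third class, which acts on fatty and lipid-derived aldehydes. Aldh3a1, abundant in the cornea, was not well above background in either tumour, with signals of 7.05 ± 4.84 and 15.7 ± 3.81. Aldh3a2, the fatty aldehyde dehydrogenase of the endoplasmic reticulum, was bright in both. Its signals of 3460 ± 346 and 2422 ± 242 are levels of 1.80 and 1.42. The difference of -0.37 (1.3-fold) exceeded the spot error and lay among the middle of all genes, of which 20.3% were lower.

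Aldh3b1, which oxidises aldehydes from lipid peroxidation, was measured by 1 probe printed once. Its signal was 460 ± 46.2 in tumour 1 and 2806 ± 281 in tumour 2. These are levels of -1.11 and 1.63, with a mean of 0.26 ± 1.94 (SD, n = 2). The difference of 2.75 (6.72-fold) placed it at rank 25 of 13441 genes ordered from the highest in tumour 2. The local background was alike on both arrays, 51.5 and 48.0, and neither spot was saturated or marked as an outlier.

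**Figure D2:**
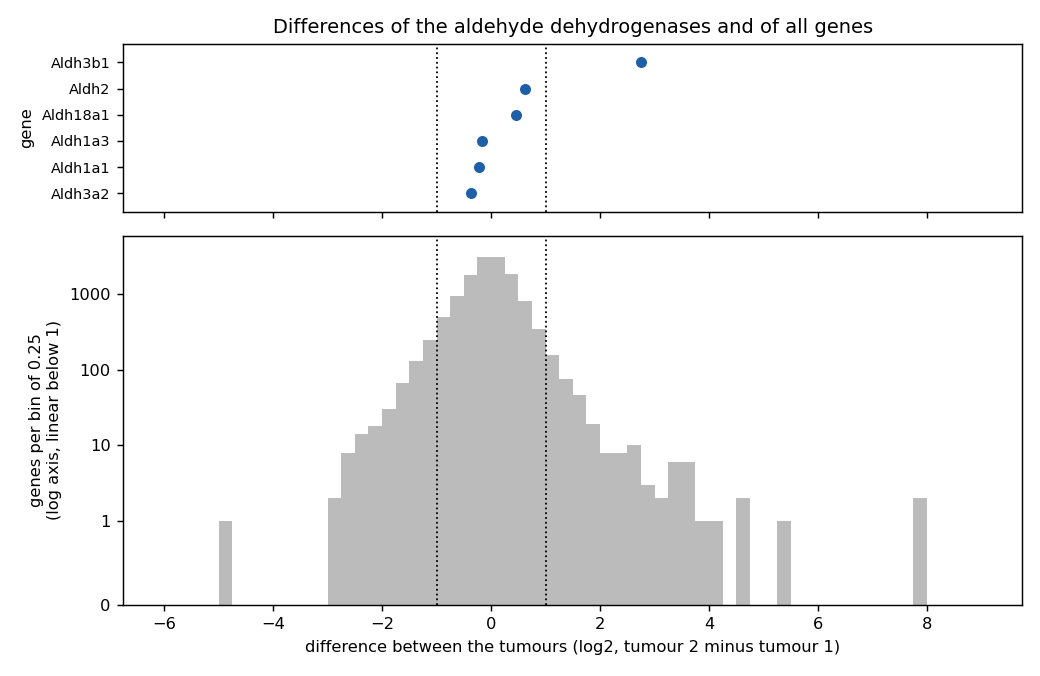
Differences (log2, tumour 2 minus tumour 1) of the 6 aldehyde dehydrogenases measured in both tumours (upper panel, 1 point per gene) over the counts of all 13441 genes in bins (lower panel, log axis); dotted lines mark 2-fold. Aldh3b1 at 2.75 stands outside the dotted lines and the other 5 lie between -0.37 and 0.63.

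The spot of Aldh3b1 on array 1 was uneven. The SD of its pixels was 55.0% of the spot mean, against 14.2% for the same spot on array 2. Over 19034 spots well above background on both arrays and away from marks, the median pixel SD on array 1 was 14.9% of the spot mean and the 95th percentile 20.4%. The median pixel of the Aldh3b1 spot on array 1 was 395, below its mean of 518. On array 2 the median was 2632 and the mean 2726.

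Only 24 of the 19034 spots were as uneven on array 1, Aldh3b1 included. Of these, 23 were higher in tumour 2 by at least 2-fold and 1 was higher in tumour 1 by as much, with a median difference of 1.89. Over all 19034 spots 2.78% were at least 2-fold higher in tumour 2. The nearest marked spot was 5 rows or columns away. The 271 other unmarked spots within 10 rows and columns that were well above background on both arrays had a median difference of 0.02. Leaving out every spot with a pixel SD above 30% of its mean on either array, a setting added after seeing the data, removed Aldh3b1. Of the 5 members still measured 0 were then at least 2-fold apart, beside 5.80% of 13347 genes, and their median difference was -0.15. With the median pixel less the local background in place of the processed signal, Aldh3b1 differed by 3.05. No second probe or repeat spot of Aldh3b1 exists on the array to set against these values.

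**Figure D3:**
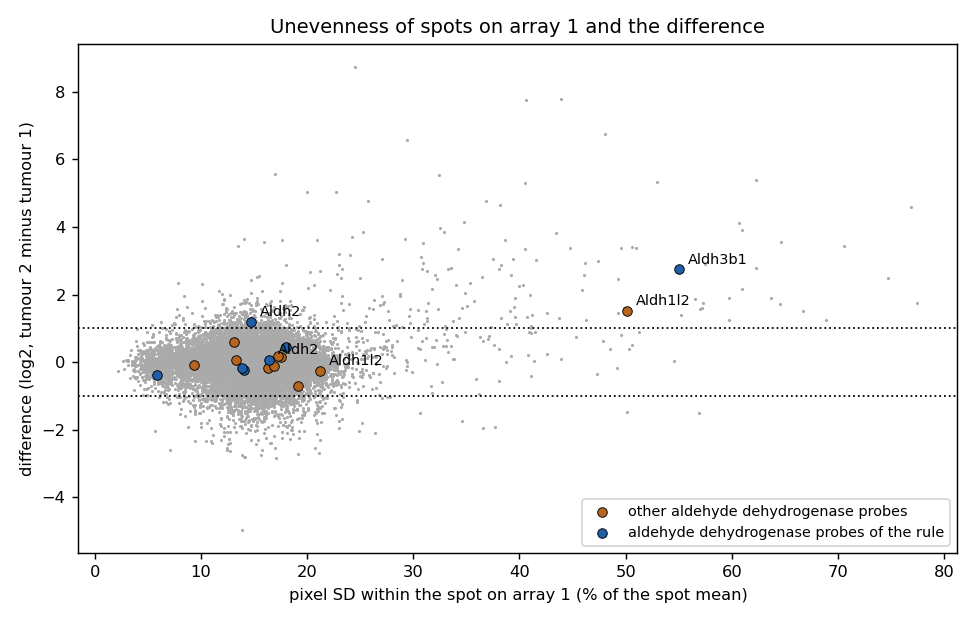
Pixel SD within a spot on array 1 (% of the spot mean) against the difference (log2, tumour 2 minus tumour 1) for 19034 spots (grey), aldehyde dehydrogenase probes of the rule (blue) and other aldehyde dehydrogenase probes (brown); dotted lines mark 2-fold. Aldh3b1 (55.0%) and 1 probe of Aldh1l2 (50.1%) lie in the sparse right part, and the remaining family probes lie at 21.2% or less; 23 of the 24 spots at or right of Aldh3b1 are above the upper dotted line.

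The chromosomal neighbours of Aldh3b1 were looked up. Of the 6 protein-coding genes on each side in the RefSeq order, 9 had a value, from -0.21 to 0.58 with a median of 0.07. Of these 0 were at least 2-fold apart, where 6.44% of all genes were, so nothing is read from that count. Ndufs8, a subunit of respiratory complex I next to it on one side, differed by 0.07, and Unc93b1, which carries Toll-like receptors to endosomes, on the other side by 0.07. The latter is the median of a pair of probes at 0.43 and -0.29. Aldh3b2, a close relative of Aldh3b1, lies 3 genes away. With the 1 of its probes that was well above background it reached -3.22 and -2.64 in tumours 1 and 2, differing by 0.58.

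Aldh7a1 and Aldh18a1 serve amino acid metabolism. Aldh7a1, or antiquitin, acts in the breakdown of lysine. Away from marks it was read by 1 probe that was not well above background in either tumour, where the software had replaced both low signals by a surrogate. A further probe 2 steps from a mark read 6.46 ± 4.23 in tumour 1, not well above background, and 46.2 ± 5.43 in tumour 2. The spot of this further probe was left out, and no fold is given, since its signal in tumour 1 was not well above background. The probe away from marks showed no signal in either tumour.

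Aldh18a1 makes the first intermediate of proline synthesis from glutamate. Its signals were 501 ± 50.3 in tumour 1 and 621 ± 62.2 in tumour 2. The levels of -0.99 and -0.54 differed by 0.45 (1.37-fold), more than the spot error of 0.26, and 86.7% of all genes lay lower. The spot lay 4 steps from a mark and dropped out when a wider border was left out.

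Each difference was recomputed under other processing. Over 11 planned and 2 added alternatives, Aldh3b1 ranged from 2.53 to 3.05 in the 12 that measured it, and leaving out uneven spots removed it. All 12 read the same uneven spot, so this range cannot show whether the value of that spot is sound. Aldh2 ranged from 0.43 to 1.19, the higher value, beyond 2-fold, with the brighter probe alone, and Aldh18a1 from 0.25 to 0.66. Aldh3a2 ranged from -0.57 to -0.16, Aldh1a3 from -0.49 to -0.01 and Aldh1a1 from -0.50 to 0.00. No member changed its direction, although Aldh1a1 and Aldh1a3 came to zero or near it when the local median of the array surface was subtracted.

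**Figure D4:**
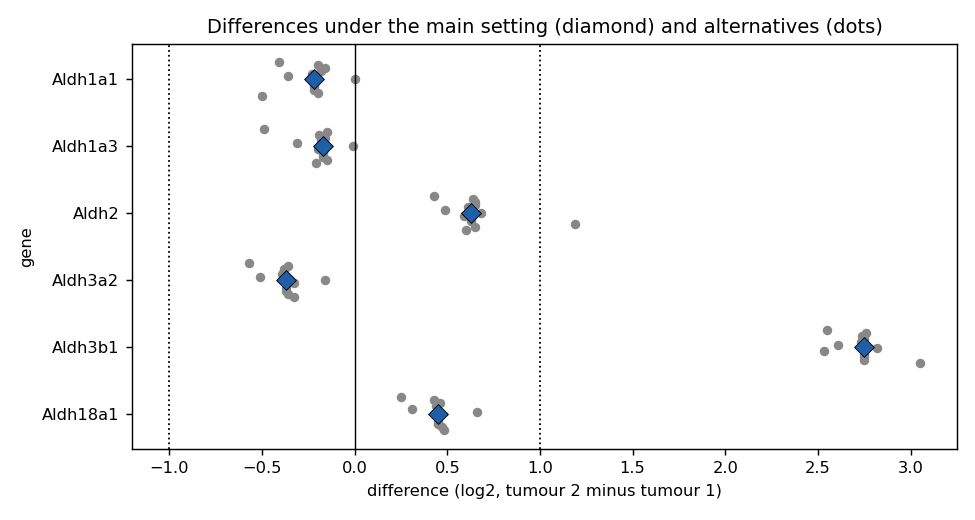
Difference (log2, tumour 2 minus tumour 1) of each of the 6 measured genes in the main setting (diamond) and under each alternative (dots, spread vertically for legibility); dotted lines mark 2-fold. Aldh3b1 stays between 2.53 and 3.05, and Aldh2 crosses the 2-fold line only with its brighter probe, at 1.19.

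The array held 10 further aldehyde dehydrogenases outside the rule under their present names, and Aldh3b3 under an older clone name. Of the 10, 9 were measured in both tumours away from marks. Of these 5 were higher in tumour 2 and 4 in tumour 1, with a median of 0.07, and 0 of the 9 were at least 2-fold apart. Over all genes 6.44% were that far apart, so nothing is read from this count. Aldh1l1, which oxidises formyl tetrahydrofolate in the cytosol, had the lowest difference, -0.70 (-0.29 in tumour 1 and -0.99 in tumour 2). Aldh1l2, its mitochondrial counterpart, had the highest, 0.64. Its probes disagreed, one at -0.25 and the other at 1.52, and the second lay on the other very uneven spot of the family on array 1 (50.1%). Without uneven spots Aldh1l2 differed by -0.23.

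Aldh4a1 of proline breakdown differed by -0.08, Aldh5a1 of succinic semialdehyde oxidation by -0.19, Aldh6a1 of valine breakdown by 0.17, Aldh9a1 of carnitine synthesis by -0.13, Aldh8a1 by 0.07 and Aldh16a1 by 0.14. These 6 differences were within the spot error. Aldh1a7 was not well above background in either tumour. Aldh3b3, which lies between Unc93b1 and Aldh3b2, was not above it either with its probe away from marks. Its other probe, 2 steps from a mark, reached a level of -6.27 in tumour 1, not well above background, and -4.18 in tumour 2, well above it. Where such a gene had a further probe near a mark, that probe lay further towards tumour 2, at 0.87 for Aldh5a1, 0.90 for Aldh16a1 and 3.79 for Aldh9a1. With all unmarked spots Aldh9a1 differed by 1.63.

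The genes that work beside the members were taken from 4 lists, and 1 gene of these lists was at least 2-fold apart, where 6.44% of all genes were. With all unmarked spots 3 were, beside 11.3% of all genes, namely Adh7 (1.44), the retinoid receptor Rxrb (1.36) and the carbonyl reductase Cbr2 (-1.73). Rxrb and Cbr2 had no spot away from marks. Of 20 genes of retinoid metabolism and response, 10 were measured, 4 higher in tumour 2 and 6 in tumour 1, with a median of -0.09 and differences from -0.59 to 0.39. Rdh10, which supplies retinaldehyde to the Aldh1a enzymes, had levels of 0.71 (tumour 1) and 0.16 (tumour 2) and so differed by -0.55. Dhrs3, which reduces retinaldehyde back to retinol, differed by -0.13, and the retinoic acid carrier Crabp2 by 0.36. Rarb, a retinoic acid receptor that is itself induced by retinoic acid, was well above background in tumour 1 only. Other genes of this list were so in tumour 1 only or in tumour 2 only, and no direction is read from such calls. Of the 10 measured, 0 were at least 2-fold apart. With all unmarked spots 8 were higher in tumour 2 and 6 in tumour 1, and the median turned to 0.12.

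Alcohol dehydrogenases and reductases produce or remove the same aldehydes. Of 14 listed, 7 were measured, 4 higher in tumour 2 and 3 in tumour 1, with a median of 0.10. With all unmarked spots the direction turned, with 4 higher in tumour 2, 7 in tumour 1 and a median of -0.17, beside -0.18 over all genes. Adh7, the retinol-oxidising alcohol dehydrogenase of epithelia, lay at -1.09 in tumour 1 and 0.55 in tumour 2. Its difference of 1.64 (3.11-fold) rests on 1 probe with even pixels, 16.9% of the spot mean on array 1 and 17.9% on array 2. Adh5, the formaldehyde-clearing form, differed by 0.44, and Adh1 and Adh4, which also act on alcohols, were not well above background in either tumour.

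Around Aldh18a1, 9 of 10 genes of proline and glutamate synthesis were measured. Of these 6 were higher in tumour 2 and 3 in tumour 1, with a median of 0.04, and 0 were at least 2-fold apart. Pycr1 and Pycrl, which complete proline synthesis, differed by 0.14 and 0.28, and Oat, which feeds the same intermediate from ornithine, by -0.19. Around Aldh7a1, 5 of 8 genes of lysine breakdown were measured, with a median of 0.16 and 0 at least 2-fold apart. With 6.44% of all genes that far apart, nothing is read from the counts of 0 in the proline and lysine lists. The medians of the proline and lysine lists were -0.04 and -0.03 with all unmarked spots. Aass, the enzyme at the head of that pathway, lay at -5.60 and -5.75 and differed by -0.16, and Gcdh, further along it, by 0.00. Dhtkd1 was not well above background in either tumour, and Aadat had no spot away from marks.

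**Figure D5:**
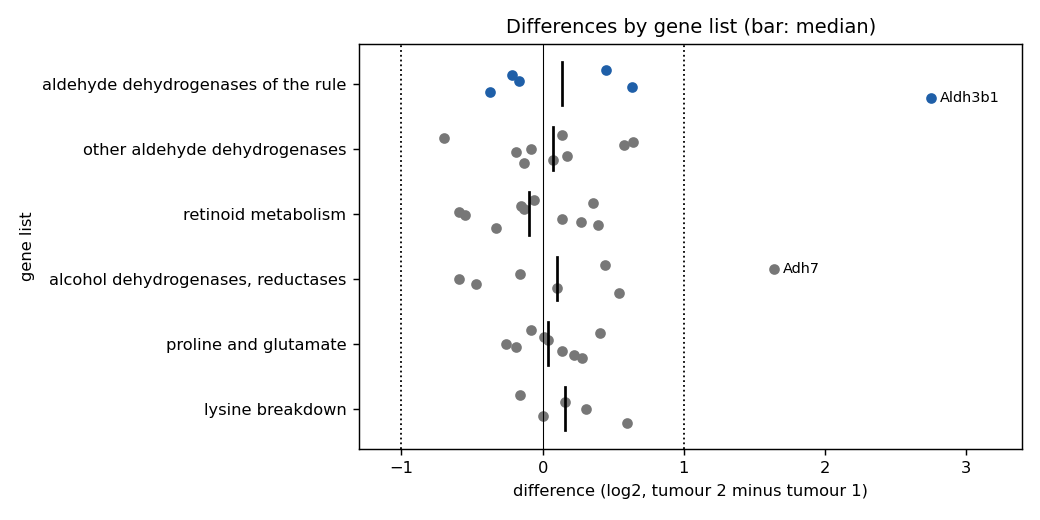
Differences (log2, tumour 2 minus tumour 1) of the measured genes of each list (points, spread vertically for legibility) with the list's median (black bar); dotted lines mark 2-fold. Aldh3b1 (2.75) and Adh7 (1.64) are the genes beyond 2-fold.

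Marker genes of other cell types differed as well. Of 7 keratinocyte markers on the array 3 were measured, all higher in tumour 2, with the basal keratins Krt5 at 3.54 and Krt14 at 3.64 and the epithelial gene Sfn at 0.17. The levels were -5.21 and -1.67 for Krt5, -4.27 and -0.62 for Krt14 and 3.52 and 3.69 for Sfn, in tumours 1 and 2. The summed scaled signal of the 3, 11.5 times the 75th percentile in tumour 1 and 13.9 times in tumour 2, was nearly all that of Sfn. Such sums, here and below, follow the brightest probes and do not measure the amount of a cell type. Using all unmarked spots, 2 of 4 were higher in tumour 2 and Sfn differed by -0.02. The keratinocyte genes Trp63 and Dsg3 were not well above background in either tumour. Fibroblast markers were lower in tumour 2 in 5 of 6 cases (median -0.36, summed signal 15.6 and 11.9), and endothelial markers in 5 of 6 (median -0.35, 3.91 and 2.40). All 3 measured erythroid markers were higher in tumour 2 (median 0.98, 20.7 and 35.7), as were both measured neutrophil markers (median 0.42, 68.2 and 88.8) and 6 of 7 skeletal muscle markers (median 0.50, 1.25 and 2.04). With all unmarked spots 6 of 9 skeletal muscle markers were higher in tumour 2 (median 0.31), but the summed signal turned, 45.9 in tumour 1 and 39.2 in tumour 2, as the bright Chrna1 (-0.48) entered. Macrophage markers had a median of -0.05 over 4 genes, and 1 gene each was measured of the T and B cell lists. Adipocyte markers (2 measured) had a median of -1.05 and Schwann cell markers (3 measured) one of -0.55. The part of these cell types in the values of Aldh3b1, Aldh2 and Adh7 was not tested.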

How the data were processed

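RNA was isolated with Trizol and labelled with Cy3 (1.0 µg per array), per the labels' protocols. The deposited intensity values come from Agilent Feature Extraction; its version is 9.1.3.1 per the file headers, but 8 in the submitters' processing notes. The deposited value table equals the processed signal intensity at every spot, with medians of 63.3 and 67.5. Flags for outliers, saturation and detection (a score of 0 or 1) are the software's, per the file headers. Gene names came from array 2, since 47 non-control spots on array 1 had other names. No value column lacked a sample.

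Values were scaled to the 75th percentile of the non-control spots used (996.0 and 903.4). A gene's difference is the median over its unsaturated probes well above background on both arrays. Probes sit on 1 slide with 1 scan. Accessions of 11 of the 13 member probes matched RefSeq, all to the same symbol. The text names each member, every other aldehyde dehydrogenase, and from each list the first 4 genes and those at least 2-fold apart, except 1 gene that is not reported here; from marker lists and neighbours only examples, some chosen after their values were seen. Members and lists were chosen with earlier results of these data known. R 4.3.3, limma 3.58.1 and Python 3.11.15 were used, and the procedure was tested on simulated data. Both simulated arrays were made from array 2 with its detection calls. They held no simulated faults of uneven spots or of spots near marks, so the test does not cover these. Alternatives covered spots used, border width, scaling (quantile, loess with span 0.3, detected median, none, local median), normexp with offset 50, detection, filter, brightest probe and leaving out each tumour.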

Additional observations from a re-analysis of the deposited data

How the results depend on the processing

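No paired analysis was possible because the series holds 1 group. The count of members at least 2-fold apart was 1 in the main setting (6.44% of all genes), 2 with all unmarked spots (11.3%), with detection as positive and significant (9.76%), with no detection filter (9.79%) and with the brightest probe of a gene (6.37%), and 0 without uneven spots (5.80%). The median difference of the members was -0.15 with 4 rows and columns around marks left out and -0.15 without uneven spots. The difference of Aldh3b1 was 3.05 with the median pixel signal. Genes at least 2-fold apart numbered 865 in the main setting, 1856 with all unmarked spots, 305 with normexp, 1577 with detection as positive and significant and 2146 with no filter. The share of these genes that was higher in tumour 2 was 40.3%, against 24.8% unscaled, 57.8% with the local median subtracted and 53.4% with normexp. The median over all genes shifted to -0.16 in the unscaled table and to 0.12 with the local median. Leaving out 1 tumour gave 6 to 7 detected members, and no difference can be formed from 1 tumour. The cause of these changes was not tested, except that fewer spots are used where spots are left out and more where filters are dropped. Signal near background limits Aldh1b1, Aldh3a1 and Aldh7a1.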

Other observations

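Uneven spots were more frequent on array 1 among the spots used. Of 19034 spots well above background on both arrays and away from outlier marks, 163 had a pixel SD above 30% of the spot mean on array 1 (0.856%) and 13 on array 2. The 163 had a median difference of 1.46 (log2, tumour 2 minus tumour 1), with 63.2% higher in tumour 2 by at least 2-fold and 3.68% higher in tumour 1 by as much. Of the other spots 2.26% were at least 2-fold higher in tumour 2. None of the 163 carries an outlier mark, since marked spots and those near them were left out.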
